A study of Homo sapiens with 12 samples.

Results

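Collagen chain genes were followed in MDA-MB-231, an established human line of triple-negative breast cancer (TNBC) that expresses the glucocorticoid receptor (GR). The members were all gene symbols in the deposited data made of COL, a number, A and a number, and 42 of the 19907 symbols met that rule. The cells carried either wild-type GR (wt-GR) or GR in which CRISPR editing replaced the phosphorylation site Ser134 with alanine (S134A-GR), and each line was exposed for 6 h to vehicle or to 10 ng/mL of TGFβ1. All groups had first been starved of serum for 18 h in IMEM with 1% DCC, which is charcoal-stripped serum. The 4 groups had 3 replicates each, giving 12 libraries of 75-base paired-end RNA-seq. The mutant line that was sequenced is 1 of the 2 single-cell clones made, and the wt-GR line is a clone that kept the unedited receptor, so that the alanine and other differences between the clones cannot be told apart. The labels do not say that replicates came from separate cultures, so p-values measure only the spread between these samples, which may be technical.

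Collagens are secreted or membrane-anchored proteins whose chains wind around each other as triple helices. Fibrillar collagens give tissues tensile strength, type IV collagen forms the sheet of basement membranes, and other families decorate fibrils, link them to cells or span the cell membrane. TGFβ1 is a cytokine long known to raise collagen synthesis in fibroblasts, and collagens made by carcinoma cells add to the matrix of the tumor. The comparisons asked which chains the cancer cells transcribed, how far each moved with TGFβ1, and whether this differed when Ser134 of GR was replaced.

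Values are normalized counts, which are reads per gene divided by the library's DESeq2 size factor. The reads behind them could be recovered, and they summed to between 56362036 and 129832227 per library. Every total exceeds the average number of reads per sample that the paper states, and the sources used here do not explain the gap. With 3 reads as the floor of detection, a gene had to reach 2.15 to 4.89 normalized counts, depending on the library, a floor that allows for counting error alone. Of the 4 genes typical of the line, the lowest library value was 8336 (NR3C1, which encodes GR) and the highest was 533198 (VIM), and the alanine codon itself cannot be read from counts. Only NR3C1 of these 4 was called different between the lines. It was lower in S134A-GR cells, at −0.41 (FDR 1.20e-04) under vehicle and −0.31 (FDR 0.00134) under TGFβ1 (log2, limma). Its means under vehicle were 11771 ± 1186 in wt-GR and 8815 ± 259 in S134A-GR cells. Of the luminal markers, ESR1 did not pass 7.32 and CDH1 did not pass 12.5 normalized counts, whereas ERBB2 (7229 to 10589), EPCAM and GATA3 were detected in every library. Fibroblast markers other than collagens were at or near the floor for DCN, LUM, DPT and FAP (at most 4.44), and low for THY1 (at most 11.1) and PDGFRA (at most 31.1). PDGFRB was the exception, rising from 2143 ± 35.9 to 3888 ± 151 normalized counts with TGFβ1 where GR was wild type, and from 1912 ± 59.4 to 2166 ± 119 where it was mutant (mean ± SD, n = 3). Its response was called different between the lines, at −0.68 (SE 0.0701, FDR 9.09e-04) on the log2 scale, the sign that COL1A1 also had. Summed over the 7 fibroblast markers in the data, levels were 2135 to 2199.7 and 3744 to 4050.4 in wt-GR cells (vehicle, then TGFβ1) and 1853 to 1961 and 2052 to 2304 in S134A-GR cells. Summed over 5 endothelial and blood cell markers, they were 1923 to 2062, 1481 to 1535, 1457 to 1580.4 and 934 to 1124 in the same order, with PTPRC at most 9.80 and CDH5 falling from 187 ± 31.1 in wt-GR to 19.0 ± 7.61 in S134A-GR cells under vehicle. CD14 did not pass 37.5, while PECAM1 (746 to 1454) and VWF (161 to 414) were detected in every library. Between lines under vehicle PECAM1 differed by −0.25 (FDR 0.0104, limma) on the log2 scale. VWF was not called, with 396 ± 30.2 in wt-GR and 364 ± 13.3 in S134A-GR cells. The part of these markers in the collagen results was not tested. In such bulk samples, fewer cells expressing a gene and less RNA per cell cannot be told apart.

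Of the 42 collagen genes, 23 had a mean of at least 20 normalized counts over the 12 libraries, and fold changes are given for these alone. Just inside this limit was COL1A2 with a mean of 32.0 and just outside was COL4A3 with 18.2. COL1A2 and COL15A1 had a group mean under 20, so these 2 genes passed through the groups where they were higher. The 19 genes under the limit had means of 0.407 to 18.2 and no library above 27.6. They were COL2A1, COL3A1, COL5A3, COL11A1, COL11A2 and COL24A1 of the fibrillar family, COL4A3, COL4A5 and COL4A6 of the basement membrane network, COL6A6, COL10A1, COL9A1, COL14A1, COL19A1 and COL21A1, the membrane collagens COL23A1 and COL25A1, and COL26A1 and COL28A1. None of the 42 was at 0 in every library. COL3A1, the partner of type I collagen in many soft tissues, read 0 to 17.2 normalized counts. COL4A5, a chain of kidney basement membrane, read 16.3, 20.1 and 17.9 in vehicle-treated wt-GR cells and 8.89, 6.59 and 11.2 with TGFβ1, whereas 5 of the 6 S134A-GR libraries had no read and the sixth had 0.951. Of the families, basement membrane collagens had 3 of 6 genes at or above the limit, fibrillar collagens 5 of 11, beaded-filament collagens 3 of 4, short-chain collagens 2 of 3, fibril-associated collagens 5 of 9, transmembrane collagens 2 of 4, and both multiplexins and the single anchoring-fibril gene passed.

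**Figure D1:**
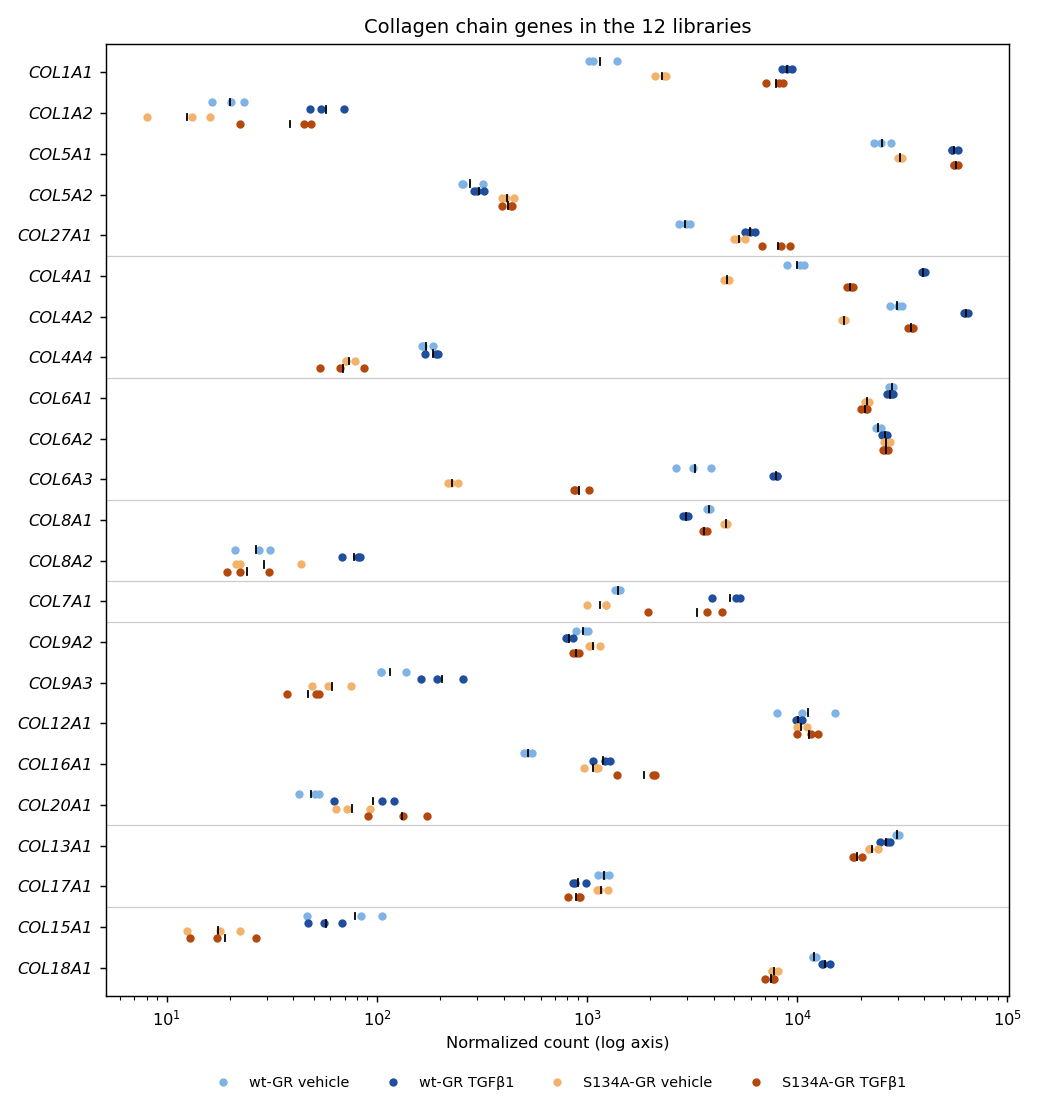
Normalized count of the 23 collagen genes in each library (log axis), with genes grouped by family and separated by grey lines; colored points are libraries and black ticks are group means. COL1A1 spans 1015 to 9418, COL6A3 spans 217 to 8034, and COL6A2 stays between 23600.2 and 27639.8.

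Per kilobase of the annotated transcript, the collagen with the highest level in wt-GR cells under vehicle was COL13A1, a transmembrane collagen of cell junctions, at 9479 ± 137 normalized counts per kb (mean ± SD, n = 3). It was followed by the type VI chains COL6A2 (7019 ± 205) and COL6A1 (6698 ± 153), then by COL4A2 (4609 ± 325) and COL5A1 (3006 ± 272). The COL6A2 and COL6A1 levels lay within 0.930 and 0.996 of each other as a ratio in single libraries, so these neighbors in the order were close to their spread. After TGFβ1 the order in wt-GR cells changed, with COL4A2 first at 9803 ± 236 per kb, COL13A1 next at 8377 ± 473, and COL4A1 rising to 6073 ± 107. COL1A1, the main chain of type I collagen, reached only 1512 ± 82.1 per kb even after TGFβ1. The order of genes per kb depends on the length used, which was that of 1 transcript per gene. That length was 3148 bases for COL13A1, 3445 for COL6A2 and 6446 for COL4A2. All annotated exons together cover 11509, 5334 and 19271 bases, and the order with those lengths was not computed. Collagen genes together took 0.197 to 0.213% of all normalized counts in vehicle-treated wt-GR cells and 0.304 to 0.318% under TGFβ1. In S134A-GR cells the same share was 0.181 to 0.185% and 0.239 to 0.252%. The 4 groups did not overlap in this share, which was lowest in S134A-GR cells under vehicle and highest in wt-GR cells under TGFβ1.

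The start sites of several of these genes are shown, taken from those that moved with TGFβ1 or differed between lines, and not by size of change. COL6A2, COL8A2, COL9A2, COL13A1, COL15A1, COL16A1, COL17A1 and COL18A1 were also called in a comparison and had start sites in the source used, and are not shown. COL1A1, COL1A2, COL5A2, COL6A1, COL8A1, COL9A3 and COL20A1 had none there. COL4A1 and COL4A2 lie head to head on chromosome 13, with COL4A1 at chr13:110148963-110307157 on the minus strand and COL4A2 at chr13:110305812-110513209 on the plus strand (GRCh38, GENCODE). Their RefSeq start sites, at 110307157 and 110307284, have 126 bases between them. COL4A4 (chr2:227002714-227164453, minus strand) and COL6A3 (chr2:237324003-237414328, minus strand) lie on chromosome 2, COL5A1 (chr9:134641803-134844843) and COL27A1 (chr9:114155537-114312511) on chromosome 9, and COL7A1 (chr3:48564073-48595329, minus strand) on chromosome 3. The stretches given are the longest runs free of annotated exons within the 150 bases before each RefSeq start (between both starts for COL4A1 and COL4A2), 5′ to 3′ on the strand named, from the RefSeq table for GRCh38.p14. Those of COL4A1/COL4A2, COL4A4 and COL6A3 lie inside a gene span above, since the GENCODE genes reach beyond these RefSeq starts, and that of COL6A3 does not adjoin its RefSeq start. Capitals mark GGGCGG (the GC box), CCAAT and CAGAC (a core that SMAD proteins bind) on either strand.
COL4A1/COL4A2, chr13:110307158-110307257, plus strand: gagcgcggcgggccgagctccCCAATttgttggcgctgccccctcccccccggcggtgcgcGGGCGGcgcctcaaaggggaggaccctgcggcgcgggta
COL4A4, chr2:227164206-227164355, minus strand: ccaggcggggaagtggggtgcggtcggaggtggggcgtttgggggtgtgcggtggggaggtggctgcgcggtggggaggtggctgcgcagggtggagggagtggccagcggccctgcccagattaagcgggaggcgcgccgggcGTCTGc
COL6A3, chr2:237414208-237414278, minus strand: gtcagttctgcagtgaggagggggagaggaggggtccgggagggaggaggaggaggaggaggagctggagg
COL5A1, chr9:134641653-134641802, plus strand: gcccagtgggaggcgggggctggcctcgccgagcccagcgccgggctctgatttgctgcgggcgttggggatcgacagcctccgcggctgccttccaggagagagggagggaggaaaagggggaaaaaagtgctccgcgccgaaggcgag
COL7A1, chr3:48595330-48595479, minus strand: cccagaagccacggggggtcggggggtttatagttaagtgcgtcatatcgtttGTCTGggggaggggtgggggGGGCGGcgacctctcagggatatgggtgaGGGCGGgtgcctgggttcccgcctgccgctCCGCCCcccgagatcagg
COL27A1, chr9:114155387-114155536, plus strand: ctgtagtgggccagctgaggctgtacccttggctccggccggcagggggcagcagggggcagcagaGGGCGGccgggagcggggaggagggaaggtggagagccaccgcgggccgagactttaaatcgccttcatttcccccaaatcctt
The table held start windows for 16 of the 23 genes, 18 windows in all. These windows are not all separate. Those of COL5A1 start at 134641553 and 134641555, and those of COL4A1 and COL4A2 overlap. Matches in shared bases, such as the CCAAT between COL4A1 and COL4A2, were counted for each window. In the 250 bases before the start, their median GC content was 73.0%, against 58.0% over all 35116 windows of the table. GGGCGG was in 14 of the 18 collagen windows, against 42.6% of all windows. CCAAT was in 3 of the 18 (32.0% of all), TATAAA in 5 (10.7% of all) and CAGAC in 5 (38.0% of all). The AP-1 motif TGANTCA was in none (6.57% of all), nor was the palindromic SMAD motif GTCTAGAC (0.182%) or the GR motif, GNACA and TGTNC with 3 bases between them (0.327%). Both strands were searched, and a match or its absence describes the letters of these windows only.

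TGFβ1 moved a large share of the collagen genes of wt-GR cells, mostly upwards. With limma and an FDR under 0.05 over all 18579 tested genes, 13 of the 23 rose (COL1A2 included) and 4 fell, against 14% and 12.1% of all genes with a mean of at least 20. At least 2-fold rises were found for 10 of the 23, COL1A2 among them, against 1.04% of all such genes, and no collagen fell 2-fold, against 0.887%. The median log2 fold change was 0.80 over the 23 collagen genes and −0.0046 over all genes tested. In S134A-GR cells 9 rose (COL1A2 included) and 4 fell, against 12.7% and 10.8%, and 6 rose at least 2-fold (COL1A2 included), against 0.776%, with no 2-fold fall, against 0.776%. Their median there was 0.078, with −0.0097 over all genes tested. Log2 fold changes are on the scale of the normalized count plus 1, which understates the change of low genes.

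**Figure D2:**
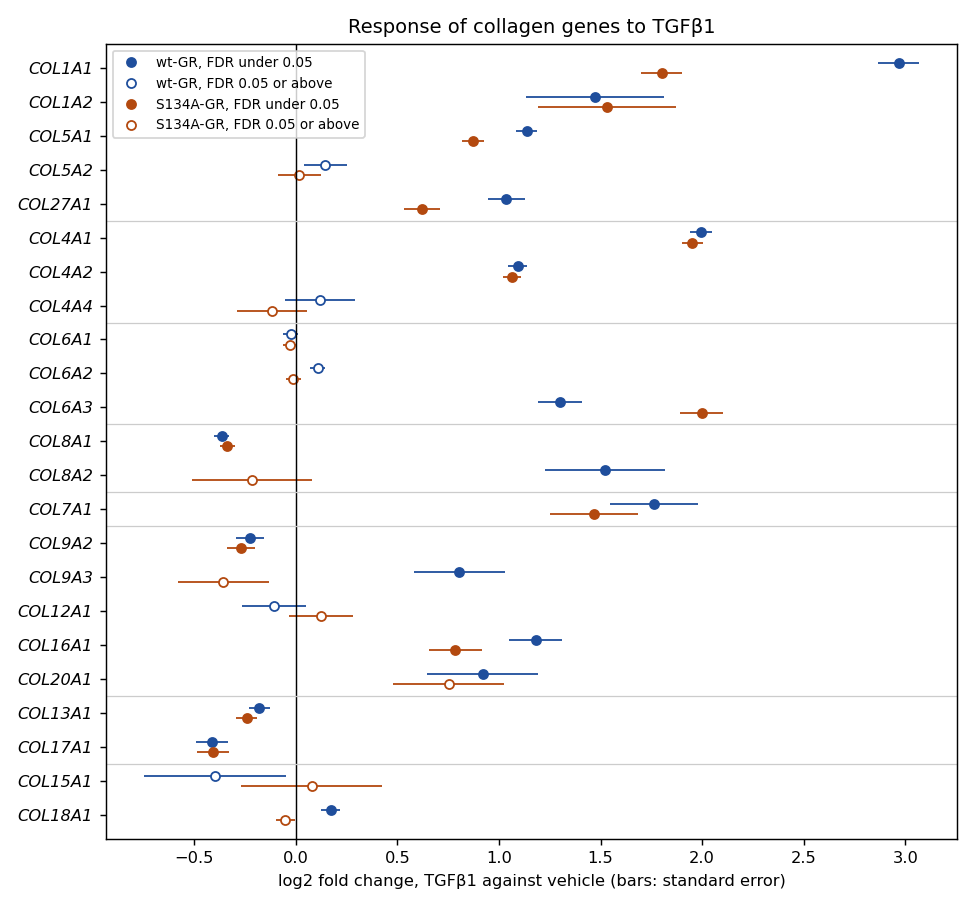
Log2 fold change of the 23 collagen genes after TGFβ1 in wt-GR (blue) and S134A-GR cells (orange), with bars for the standard error and filled points for an FDR under 0.05 (limma). COL1A1 is at 2.97 and 1.80, COL6A3 at 1.30 and 2.00, and COL8A1, COL9A2, COL13A1 and COL17A1 lie below 0 in both lines.

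Of the fibrillar collagens, COL1A1 moved most with TGFβ1. It encodes the α1 chain of type I collagen, the main fibril of bone, skin and tumor stroma. In wt-GR cells its values were 1380.1, 1015 and 1063 normalized counts under vehicle and 9418, 8448 and 8968 under TGFβ1. In S134A-GR cells they were 2331, 2112 and 2369.7 and 7081, 8526 and 8163. Every S134A-GR library under vehicle lay above every wt-GR one, and after TGFβ1 the lines overlapped. The rise was thus 7.82-fold in wt-GR cells and 3.48-fold in S134A-GR cells, log2 fold changes of 2.97 (SE 0.0993, FDR 6.36e-11) and 1.80 (SE 0.0993, FDR 1.38e-08) in limma. COL1A2, whose chain pairs with that of COL1A1 in the usual type I molecule, was barely transcribed. It read 16.3, 20.1 and 23.2 under vehicle and 47.8, 54.2 and 69.3 under TGFβ1 in wt-GR cells, and 16.02, 13.2 and 8.02 and 44.7, 48.6 and 22.2 in S134A-GR cells. It still rose in both lines without overlap, by 1.47 (SE 0.340, FDR 0.00640) and 1.53 (SE 0.340, FDR 0.00558) on the log2 scale, the second falling to 0.91 (FDR 0.00499) with a pseudocount of 16. COL1A2 passed the limit of 20 only through its TGFβ1 groups, so its rise is not independent of its admission. The level of COL1A1 over that of COL1A2, both per kb, moved with TGFβ1 from a mean of 51.8 to 138 in the wt-GR line. Single libraries there had 39.4 to 72.6 and 111 to 169, without overlap. In the mutant line the means were 172 and 201, but the libraries overlapped, at 125 to 253 and 136 to 316, so no shift was shown.

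COL5A1, whose type V chain starts and limits the width of type I fibrils, was the most counted collagen, with a mean of 42146 over the 12 libraries. Its values in wt-GR cells were 27806, 25089 and 23232 under vehicle and 58004, 54308 and 54548 under TGFβ1. In S134A-GR cells they were 31124, 29996 and 31667 and 55712, 58288 and 55972. The lines separated under vehicle and overlapped under TGFβ1, and the gene rose in both lines, by 1.14 (SE 0.0533, FDR 2.12e-09) in wt-GR and 0.87 (SE 0.0533, FDR 4.11e-08) in S134A-GR cells (log2, limma). Its type V partner COL5A2 did not pass the test for TGFβ1 in either line, with 276 ± 37.4 and 304 ± 16.3 normalized counts in wt-GR cells and 416 ± 27.8 and 421 ± 25.6 in S134A-GR cells (mean ± SD, n = 3). It was higher in S134A-GR cells under both treatments, by 0.60 (SE 0.107, FDR 2.93e-04) and 0.47 (SE 0.107, FDR 0.00214) on the log2 scale. COL27A1, a fibrillar collagen of cartilage, read 2721, 2949 and 3074 and, after TGFβ1, 6309, 5646 and 5977 in wt-GR cells. In S134A-GR cells it read 5189, 4979 and 5606 and 6787, 8372 and 9246. No groups overlapped in either the treatment or the line comparisons for COL27A1, which was higher in S134A-GR cells and rose with TGFβ1 by 1.04 (SE 0.0897, FDR 1.19e-06) in wt-GR and 0.62 (SE 0.0897, FDR 2.06e-04) in S134A-GR cells. All 4 fibrillar genes that rose in wt-GR cells (COL1A2 included) also passed the test in S134A-GR cells. Of all genes with a mean of at least 20, 14% rose in wt-GR and 12.7% in S134A-GR cells.

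The basement membrane genes COL4A1 and COL4A2, which encode the chains of the type IV molecule found in nearly all basement membranes, rose with TGFβ1 in both lines, from a lower level in S134A-GR cells. COL4A1 read 10741, 10318 and 8967 under vehicle and 39109, 39566 and 40486 under TGFβ1 in wt-GR cells. It read 4492, 4612 and 4743 and 18346, 17935 and 17312 in S134A-GR cells. The lowest wt-GR library exceeded the highest S134A-GR library under each treatment. TGFβ1 changed COL4A1 by 1.99 (SE 0.0538, FDR 1.12e-11) in wt-GR and 1.95 (SE 0.0538, FDR 1.27e-11) in S134A-GR cells, and the difference of these log2 responses was −0.04 (SE 0.0760, FDR 0.899). COL4A2 read 31633, 30013 and 27479.9 and, after TGFβ1, 64845, 61858 and 62866 in wt-GR cells. It read 16257, 16812 and 16749 and 35346, 35108 and 33757 in S134A-GR cells, again with no overlap between lines or treatments. Its responses were 1.09 (SE 0.0445, FDR 5.01e-10) and 1.06 (SE 0.0445, FDR 8.18e-10), and their difference was −0.03 (SE 0.0629, FDR 0.919).

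The 2 genes thus shared the direction of both comparisons but not the size. COL4A2 over COL4A1, both per kb, went from 2.95 to 3.11 in wt-GR libraries under vehicle down to 1.58 to 1.68 under TGFβ1. In S134A-GR libraries it went from 3.58 to 3.70 down to 1.95 to 1.99. The ratio was lower after TGFβ1 in every library, and it was higher in S134A-GR than in wt-GR cells under each treatment. As a share of all collagen counts, the pair took a mean of 21.3% and 34.7% in wt-GR cells and 13.4% and 23.6% in S134A-GR cells, under vehicle and TGFβ1 respectively. COL4A4, a chain of the specialized basement membranes of kidney and inner ear, behaved differently. It read 184, 165 and 163 and 170.0, 190.4 and 196 in wt-GR cells and 78.2, 71.0 and 71.3 and 53.3, 66.8 and 86.6 in S134A-GR cells, vehicle before TGFβ1. The treatments overlapped in each line while the lines did not overlap, and COL4A4 was 2.30-fold lower in S134A-GR cells under vehicle and 2.71-fold lower under TGFβ1. Its head-to-head partner COL4A3 stayed between 8.10 and 27.6 normalized counts.

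Type VI collagen forms beaded filaments around cells, and a chain from each of COL6A1, COL6A2 and COL6A3 is needed for the common molecule. The genes for the first 2 chains hardly moved with TGFβ1, and COL6A3 moved strongly. COL6A1 had 28153 ± 642 and 27670.0 ± 919.6 normalized counts in wt-GR cells and 21385 ± 413 and 20969 ± 719.6 in S134A-GR cells, vehicle before TGFβ1 (mean ± SD, n = 3). It was lower in S134A-GR cells, at −0.40 (SE 0.0360, FDR 5.40e-07) under vehicle and −0.40 (SE 0.0360, FDR 5.38e-07) under TGFβ1 on the log2 scale. COL6A2 had 24180.2 ± 706 and 26047 ± 598 in wt-GR cells and 26538 ± 969 and 26298 ± 753 in S134A-GR cells, with a call between lines under vehicle of 0.13 (FDR 0.00716). Its rise of 0.11 with TGFβ1 in wt-GR cells missed the threshold (FDR 0.0531), and passed it with DESeq2 (0.11, FDR 0.0325), TMM scaling (0.12, FDR 0.0308) or another filter (0.11, FDR 0.0451), and without wt-GR vehicle replicate 3 (0.13, FDR 0.0234), S134A-GR vehicle replicate 2 (0.11, FDR 0.0472) or S134A-GR TGFβ1 replicate 1 (0.11, FDR 0.0495).

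COL6A3 read 3879.6, 3189 and 2661 normalized counts under vehicle and 8034, 7963 and 7696 under TGFβ1 in wt-GR cells. In S134A-GR cells it read 243, 217 and 225 and 1016, 874 and 862. The highest S134A-GR library, with TGFβ1, lay below the lowest wt-GR library without it. COL6A3 was 13.98-fold lower in S134A-GR cells under vehicle and 8.63-fold lower under TGFβ1, log2 fold changes of −3.81 (SE 0.107, FDR 8.35e-12) and −3.11 (SE 0.107, FDR 5.95e-11). Of the 23 collagen genes it had the widest gap between lines under both treatments. It rose with TGFβ1 2.46-fold in wt-GR and 3.99-fold in S134A-GR cells. COL6A2 over COL6A3, both per kb, had means of 23.4 and 10.1 in wt-GR cells and 356 and 88.3 in S134A-GR cells. The RNA of the 3 chains was therefore most uneven in S134A-GR cells under vehicle.

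**Figure D3:**
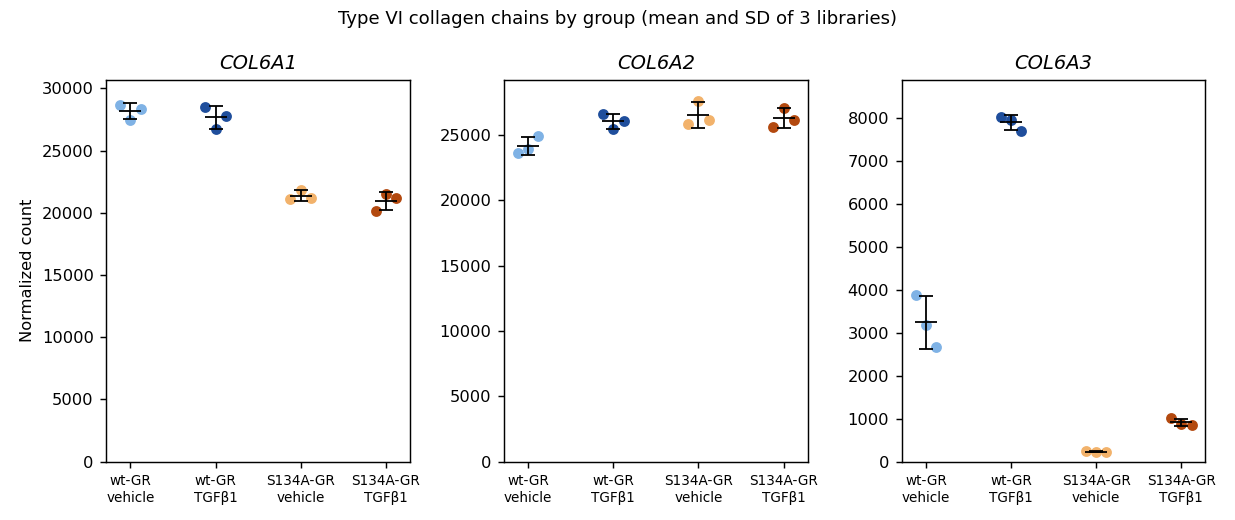
Normalized count of COL6A1, COL6A2 and COL6A3 by group on linear axes that start at 0 and differ in height; points are libraries, long ticks are means and bars are the SD of 3 libraries. COL6A1 and COL6A2 stay at or above 20158 in every library, while COL6A3 ranges from 217 to 8034.

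COL7A1 encodes the anchoring fibril that ties epithelium to the dermis. It read 1434, 1355 and 1394 and 5082, 3916 and 5318 in wt-GR cells, and 1226, 995 and 1224 and 1949.7, 3705 and 4369 in S134A-GR cells, vehicle before TGFβ1. The treatments did not overlap in either line, and S134A-GR TGFβ1 replicate 1 stood well below the other 2 replicates of its group. The rises were 1.76 (SE 0.216, FDR 3.69e-05) and 1.47 (SE 0.216, FDR 2.37e-04) on the log2 scale. COL7A1 was called lower in S134A-GR cells under TGFβ1, at −0.58 (SE 0.216, FDR 0.0379), and this call rested on single libraries. It became −0.23, FDR 0.134 without that replicate, −0.53, FDR 0.108 without wt-GR TGFβ1 replicate 1 and −0.50, FDR 0.126 without wt-GR TGFβ1 replicate 3. Under vehicle the difference of −0.29 missed the threshold (FDR 0.293), and passed it without S134A-GR TGFβ1 replicate 1 (FDR 0.0411), which enters only through the shared spread. The same library was the lowest of its group for 11 of the 23 genes, which were COL1A1, COL4A4, COL5A1, COL5A2, COL6A1, COL6A2, COL7A1, COL16A1, COL17A1, COL20A1 and COL27A1. Such a count was not particular to it. In their own groups, wt-GR TGFβ1 replicate 2 was lowest for 14 of the 23 and S134A-GR vehicle replicate 2 for 11.

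The short-chain collagens COL8A1 and COL8A2 build hexagonal lattices under endothelium, and they went opposite ways in wt-GR cells. COL8A1 fell with TGFβ1 in both lines, from 3792 ± 65.1 to 2945 ± 85.8 in wt-GR and from 4566 ± 55.8 to 3611 ± 78.5 in S134A-GR cells (mean ± SD, n = 3), log2 fold changes of −0.36 (SE 0.0372, FDR 6.27e-06) and −0.34 (SE 0.0372, FDR 1.57e-05). COL8A2, far less abundant, read 31.0, 21.1 and 27.4 under vehicle and 67.8, 82.7 and 81.5 under TGFβ1 in wt-GR cells. In S134A-GR cells it read 43.4, 22.3 and 21.4 and 30.4, 19.2 and 22.2. Only the wt-GR TGFβ1 group stood apart from the others, and COL8A2 rose 2.87-fold there (log2 1.52 (SE 0.297, FDR 0.00201)), with −0.22 (SE 0.297, FDR 0.695) in S134A-GR cells. The difference between those responses was −1.74 (SE 0.420, FDR 0.136) and was not called by limma.

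Fibril-associated collagens sit on the surface of larger fibrils, and 5 of them were measured. COL16A1, known from skin and cartilage, read 500.2, 547 and 521 and, after TGFβ1, 1219, 1066 and 1281 in wt-GR cells. In S134A-GR cells it read 1121, 964 and 1098 and 1393, 2067 and 2106. S134A-GR cells under vehicle were 2.02-fold above wt-GR cells, the only collagen called at least 2-fold higher. Its log2 difference of 1.02 fell below the 2-fold limit with a pseudocount of 16 (0.996) and without wt-GR vehicle replicate 1 (0.985), S134A-GR vehicle replicate 1 (0.976) or S134A-GR vehicle replicate 3 (0.991). TGFβ1 raised COL16A1 by 1.18 (SE 0.130, FDR 1.30e-05) and 0.78 (SE 0.130, FDR 6.28e-04) in the 2 lines. COL9A3, a chain of cartilage type IX collagen, read 104, 105 and 137 and 257, 162 and 194 in wt-GR cells and 58.4, 75.0 and 49.0 and 51.4, 52.6 and 37.2 in S134A-GR cells. All S134A-GR libraries lay below all wt-GR libraries, by 1.89-fold under vehicle and 4.24-fold under TGFβ1. Its log2 rise of 0.80 (SE 0.224, FDR 0.0200) in wt-GR cells was lost without vehicle replicate 1 (0.74, FDR 0.0635), vehicle replicate 2 (0.74, FDR 0.0731) or TGFβ1 replicate 1 (0.63, FDR 0.102). In the annotation, 155 exon bases of COL9A3 lie opposite exons of TCFL5, which is 3.2% of the 4841 bases in all its annotated exons. The strand setting of the counting is not given in the sources used here.

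COL9A2, the partner of COL9A3 in type IX collagen, fell slightly in both lines, from 958 ± 65.9 to 818 ± 34.7 in wt-GR and from 1069 ± 69.7 to 886 ± 24.9 in S134A-GR cells. The log2 changes of COL9A2 were −0.23 (SE 0.0694, FDR 0.0315) and −0.27 (SE 0.0694, FDR 0.0142), and neither call held without every library. In wt-GR cells the call was lost without vehicle replicate 2 (−0.21, FDR 0.103), vehicle replicate 3 (−0.19, FDR 0.0949), TGFβ1 replicate 2 (−0.21, FDR 0.0961) or TGFβ1 replicate 3 (−0.21, FDR 0.0967), and in S134A-GR cells without vehicle replicate 2 (−0.22, FDR 0.0728). Between lines it missed the threshold under vehicle (0.16, FDR 0.0719) and passed it without wt-GR vehicle replicate 3 (0.20, FDR 0.0422). COL20A1 went from 48.6 ± 5.51 to 96.0 ± 30.1 in wt-GR and from 76.0 ± 14.9 to 132 ± 40.9 in S134A-GR cells. The wt-GR rise of 0.92 (SE 0.273, FDR 0.0276) passed the test and the S134A-GR change of 0.75 (SE 0.273, FDR 0.0727) did not. The first was lost without wt-GR vehicle replicate 1 (0.83, FDR 0.0823), vehicle replicate 2 (0.98, FDR 0.0530), TGFβ1 replicate 1 (0.83, FDR 0.101) or TGFβ1 replicate 3 (0.73, FDR 0.1203). The second passed without S134A-GR TGFβ1 replicate 1 (1.00, FDR 0.0254) or wt-GR TGFβ1 replicate 2 (0.75, FDR 0.0433), which also brought the line difference under vehicle (0.62 (SE 0.273, FDR 0.0709)) to FDR 0.0472 and 0.0417. COL12A1, a fibril-associated collagen of tendon and stroma, passed no test, with group means of 10076 to 11359 and the widest spread in wt-GR cells under vehicle (11232 ± 3614).

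The measured transmembrane collagens both fell with TGFβ1. COL13A1 went from 29841 ± 431 to 26370.5 ± 1487 in wt-GR and from 22685 ± 1347 to 19166 ± 1018 in S134A-GR cells, log2 changes of −0.18 (SE 0.0509, FDR 0.0216) and −0.24 (SE 0.0509, FDR 0.00376). The wt-GR call was lost without vehicle replicate 2 (−0.18, FDR 0.0575), TGFβ1 replicate 1 (−0.19, FDR 0.0501) or TGFβ1 replicate 2 (−0.14, FDR 0.101). COL13A1 was lower in S134A-GR cells under both treatments, at −0.40 (SE 0.0509, FDR 1.50e-05) and −0.46 (SE 0.0509, FDR 4.05e-06). COL17A1, the hemidesmosome collagen of basal epithelium, went from 1202 ± 70.1 to 903 ± 72.9 and from 1169 ± 81.9 to 881 ± 65.3, log2 changes of −0.41 (SE 0.0798, FDR 0.00184) and −0.41 (SE 0.0798, FDR 0.00233). Its values overlapped between the lines under each treatment, and no line difference was called.

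The multiplexins are basement membrane collagens that carry sugar chains and release the fragments endostatin and restin. COL18A1 was lower in S134A-GR cells under both treatments, with 12048 ± 241 and 13579.8 ± 642 normalized counts in wt-GR cells against 7748 ± 313 and 7477 ± 405, vehicle before TGFβ1. The log2 differences were −0.64 (SE 0.0467, FDR 6.68e-08) and −0.86 (SE 0.0467, FDR 3.72e-09). Its small wt-GR rise of 0.17 (SE 0.0467, FDR 0.0174) was lost without vehicle replicate 2 (0.16, FDR 0.0632) or TGFβ1 replicate 1 (0.13, FDR 0.0908). In the annotation, 1563 exon bases of COL18A1 lie opposite exons of SLC19A1, so that without the strand setting its counts are uncertain. They are 18.47% of the 8464 bases in all annotated exons of COL18A1. COL15A1 read 106, 83.5 and 46.3 and 46.7, 55.7 and 68.2 in wt-GR cells and 17.9, 22.3 and 12.5 and 26.6, 17.2 and 12.9 in S134A-GR cells. The treatments overlapped in each line and the lines did not, and COL15A1 was 4.16-fold lower in S134A-GR cells under vehicle and 2.99-fold lower under TGFβ1. COL15A1 passed the limit of 20 only through its wt-GR groups, so its line difference is not independent of its admission.

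Between the lines, calls at FDR under 0.05 were common among all genes and not much more so among collagens. Under vehicle 7 of the 23 were higher in S134A-GR cells and 9 lower (COL15A1 included), against 30% and 31.8% of all genes with a mean of at least 20. Differences of at least 2-fold were fewer. COL4A1, COL4A4, COL6A3 and COL15A1 were lower, against 3.46% of such genes, and COL16A1 was higher, against 4.34%. COL1A1, at 0.99 (SE 0.0993, FDR 1.43e-06), lay just under the 2-fold limit, and passed it with TMM scaling (1.007) and without wt-GR vehicle replicate 1 (1.13) or S134A-GR vehicle replicate 2 (1.04). Under TGFβ1 4 collagens were higher and 11 lower (COL15A1 included), against 28% and 30.7%, and the 6 that differed at least 2-fold (COL4A1, COL4A4, COL6A3, COL8A2, COL9A3 and COL15A1) were all lower, against 3.56% of such genes, with none higher, against 3.27%. The median log2 difference between lines was −0.064 over the 23 genes under vehicle and −0.40 under TGFβ1, with 0.019 and 0.012 over all genes tested. By family, the 3 basement membrane genes and the 2 multiplexins (COL15A1 included) were called lower under both treatments, and of the 5 fibrillar genes 4 were called higher under vehicle and 2 under TGFβ1. COL1A1 under TGFβ1 had −0.18 (FDR 0.159), and this passed without wt-GR vehicle replicate 1 (FDR 0.0404), which enters only through the shared spread. The vehicle and TGFβ1 comparisons use different libraries, but each shares its libraries with the treatment comparisons above.

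**Figure D4:**
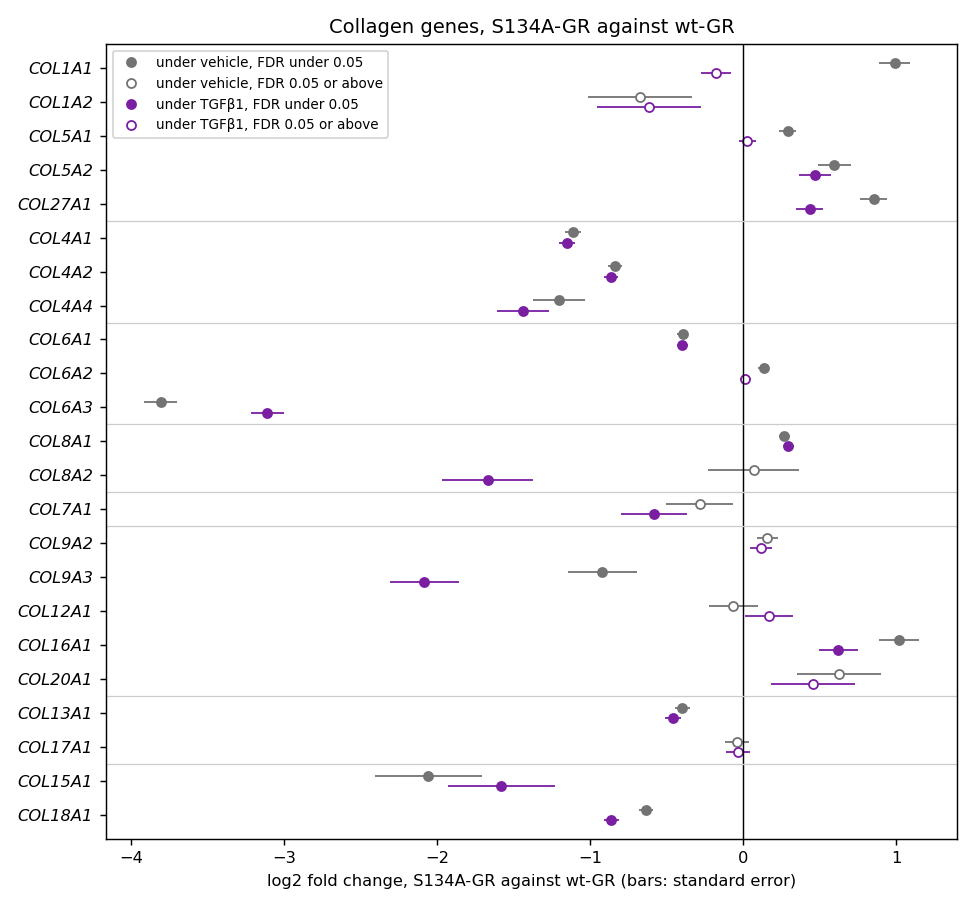
Log2 fold change of the 23 collagen genes in S134A-GR against wt-GR cells under vehicle (grey) and TGFβ1 (purple), with bars for the standard error and filled points for an FDR under 0.05 (limma). COL6A3 lies farthest to the left at −3.81 and −3.11, and COL16A1 farthest to the right at 1.02 and 0.62.

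Whether the lines responded differently to TGFβ1 was tested directly, and 1 of the 23 collagen genes was called, against 0.527% of genes with a mean of at least 20, and at 2-fold against 0.0693%. That gene was COL1A1, whose response was smaller in S134A-GR cells, with a difference of −1.17 (SE 0.140, FDR 0.00265) on the log2 scale. This follows from its values above, which were higher in S134A-GR cells under vehicle and overlapped after TGFβ1. At an unadjusted p under 0.05 (limma), 9 of the 23 differed, against 10.3% of genes with a mean of at least 20. Of the 23, 6 had a larger log2 response in S134A-GR cells. The median difference in response was −0.12 over the 23 and −0.0029 over all genes tested. COL6A3, with 0.70 (SE 0.151, FDR 0.0808), was the nearest of the others to the threshold and the response was larger in S134A-GR cells. It passed without wt-GR vehicle replicate 3 (0.83, FDR 0.00754), and COL5A1, at −0.26 (SE 0.0754, FDR 0.255), passed without wt-GR vehicle replicate 1 (−0.33, FDR 0.0339), so that the count went from 1 to 2 in each case. Under DESeq2 4 collagen genes were called, with COL6A3 (0.72, FDR 5.21e-04), COL8A2 (−1.84, FDR 0.0182) and COL9A3 (−1.19, FDR 0.0386) beside COL1A1. The genes whose response in S134A-GR cells missed the threshold after passing it in wt-GR cells (COL8A2, COL9A3, COL18A1 and COL20A1) were thus not shown by limma to respond differently.

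Because COL4A1 and COL4A2 adjoin each other and were lower together in S134A-GR cells, the neighbors of each collagen gene were also read. Up to 25 genes on each side with a mean of at least 20 were taken, and 13176 of the 14425 such genes had a position in the annotation. Of the 49 neighbors of COL4A1, 44 had a lower level in S134A-GR cells under vehicle, 31 were called lower and 2 higher (31.8% and 30% of all genes with a mean of at least 20), and their median log2 difference was −0.40 under vehicle and −0.41 under TGFβ1. COL4A1 itself was at −1.11 and COL4A2 at −0.84, below this median. The nearest genes differed, with IRS2 next to COL4A1 at −0.043 and RAB20 beyond COL4A2 at −0.97. The neighbors of COL4A4 also had a lower median, −0.30, as had those of COL5A2 (−0.41), although COL5A2 itself was higher in S134A-GR cells. Around COL6A3 the median was −0.17 against its own −3.81, and around COL15A1 it was 0.21 against −2.06. Around COL5A1, 41 of 50 neighbors were called higher (30% of all such genes), with a median of 0.35 beside the 0.29 of COL5A1. The part of the neighborhood in the line differences was not tested. For the TGFβ1 responses, the neighbor medians of COL4A1 were −0.05 in wt-GR and −0.10 in S134A-GR cells, and those of COL1A1 were 0.06 and −0.03.

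**Figure D5:**
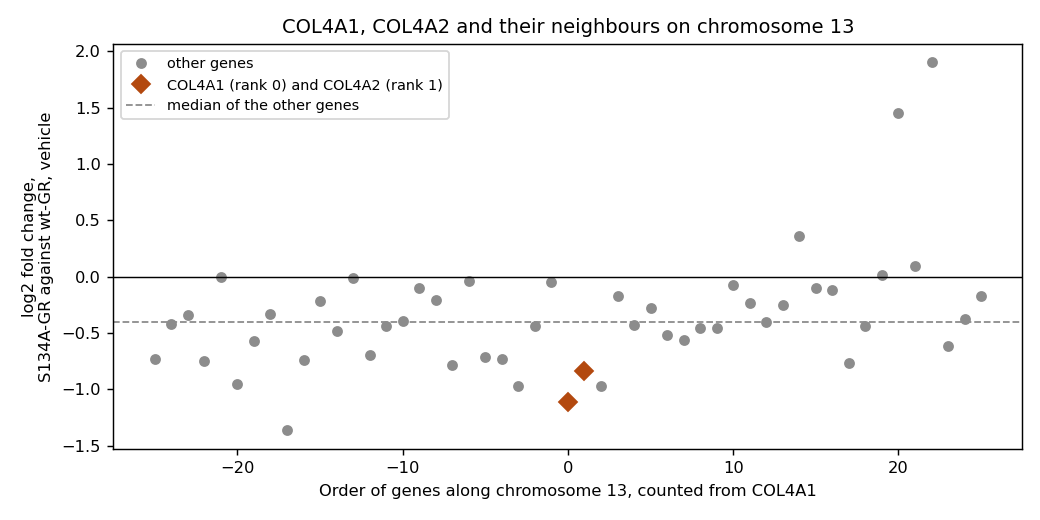
Log2 fold change in S134A-GR against wt-GR cells under vehicle for COL4A1 and COL4A2 (orange diamonds) and the genes around them (grey points), in their order along chromosome 13. Of the 49 neighbors of COL4A1, 44 lie below 0, with a median (dashed line) of −0.40, and the 2 collagen genes lie lower still at −1.11 and −0.84.

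Collagen chains need a set of enzymes and chaperones to be folded, exported and cross-linked, and these were read in the same fit. Of the 24 genes for folding and export, 23 had a mean of at least 20, and TGFβ1 raised 7 and lowered 2 in wt-GR cells (14% and 12.1% of all genes with a mean of at least 20) and raised 4 and lowered 1 in S134A-GR cells (12.7% and 10.8%). PLOD2, which hydroxylates lysines used for cross-links, rose by 0.53 (SE 0.0385, FDR 1.80e-07) and 0.66 (SE 0.0385, FDR 2.23e-08) in the 2 lines, and COLGALT2, a collagen galactosyltransferase, changed by −0.79 (SE 0.0824, FDR 7.51e-06) and −0.68 (SE 0.0824, FDR 3.83e-05) (log2, limma). CREB3L1, a transcription factor for collagen and secretory genes, rose by 0.38 (SE 0.0514, FDR 1.00e-04) and 0.48 (SE 0.0514, FDR 1.19e-05). Under vehicle, S134A-GR cells had 8 of the 23 higher and 11 lower than wt-GR cells (30% and 31.8% of all such genes), and under TGFβ1 8 and 13 (28% and 30.7%). FKBP10, a chaperone of type I procollagen, went from 3180.1 ± 42.0 normalized counts in wt-GR to 13217 ± 296 in S134A-GR cells under vehicle, a log2 difference of 2.05 (SE 0.0379, FDR 2.54e-13) that was 2.03 (SE 0.0379, FDR 1.54e-13) under TGFβ1. PLOD2 was lower in S134A-GR cells, at −1.05 (SE 0.0385, FDR 8.99e-11) and −0.92 (SE 0.0385, FDR 3.30e-10), and SERPINH1, the collagen chaperone HSP47, was at −0.71 (SE 0.0326, FDR 7.95e-10) under TGFβ1.

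Of 13 genes for propeptide processing and cross-linking, 10 were measured, of which TGFβ1 raised 3 and lowered none in wt-GR cells (14% and 12.1% of all such genes), and raised 1 and lowered 1 in S134A-GR cells (12.7% and 10.8%). BMP1, the procollagen C-proteinase, rose by 0.54 (SE 0.0556, FDR 6.87e-06) and 0.35 (SE 0.0556, FDR 4.57e-04), and ADAMTS14 changed by −0.66 (SE 0.197, FDR 0.0304) in S134A-GR cells. Under vehicle, S134A-GR cells had 3 of the 10 higher and 3 lower (LOXL4 included), close to the 30% and 31.8% of all such genes. Under TGFβ1 they had 3 higher and 4 lower (LOXL4 included), against 28% and 30.7%. LOXL4, a lysyl oxidase-like enzyme, had 56.4 ± 13.4 normalized counts in wt-GR and 5.23 ± 4.98 in S134A-GR cells under vehicle, −3.54 (SE 0.561, FDR 1.04e-04) on the log2 scale, with the S134A-GR mean close to the floor.

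All 8 collagen receptor genes were measured, and TGFβ1 raised 3 and lowered 1 in wt-GR cells (14% and 12.1% of all such genes) and raised 2 and lowered 1 in S134A-GR cells (12.7% and 10.8%). ITGA2, the α2 subunit of the integrin that binds fibrillar collagen, rose by 0.68 (SE 0.0946, FDR 1.19e-04) and 0.60 (SE 0.0946, FDR 4.01e-04), and ITGA10 changed by −0.79 (SE 0.116, FDR 1.92e-04) and −0.67 (SE 0.116, FDR 9.06e-04). Of the receptors, 3 were higher and 2 lower (ITGA11 included) in the mutant line under vehicle (30% and 31.8%). Under TGFβ1 2 were higher and 3 lower (ITGA11 included), against 28% and 30.7%, so both were near the shares over all genes. ITGA11, the α11 subunit of another such integrin, had 63.5 ± 7.09 normalized counts in wt-GR and 11.2 ± 4.57 in S134A-GR cells under vehicle, a log2 difference of −2.47 (SE 0.380, FDR 7.88e-05). Of the 10 genes for collagen degradation, 7 were measured, and TGFβ1 raised 4 in wt-GR and 1 in S134A-GR cells (14% and 12.7% of all such genes) and lowered none in either (12.1% and 10.8%). The gene raised in both was MMP2, a gelatinase, by 1.18 (SE 0.166, FDR 1.34e-04) and 0.51 (SE 0.166, FDR 0.0467). Under vehicle 5 were higher and 2 lower in S134A-GR cells (30% and 31.8%), and 4 and 2 under TGFβ1 (28% and 30.7%). The 2 lower genes under vehicle were MMP9, another gelatinase, at −2.39 (SE 0.211, FDR 4.05e-07), and MMP1, a collagenase, at −1.71 (SE 0.1104, FDR 1.90e-08), while CTSL, a lysosomal protease, was higher at 1.18 (SE 0.0446, FDR 1.15e-10). None of these 4 lists had a gene whose response to TGFβ1 was called different between the lines.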

How the data were processed

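RNA-seq of MDA-MB-231 cells gave 1 value per gene symbol in each of 12 libraries (4 groups, 3 replicates). The values the authors deposited are normalized counts, a signal on a linear scale. The authors used Trimmomatic for trimming, HISAT2 for alignment (build hg38) and featureCounts for counting, then scaled each library by its DESeq2 size factor (FastQC 0.11.7 and DESeq2 1.22.2 per the submitters' processing notes). The gene annotation and strand setting are not given in the sources used here. Each library's values were multiples of 1 step for 100% of genes (tolerance 0.001 reads), so the reads could be recovered, and whether a pair counts as 1 read is not given. The spread between replicates exceeded counting noise (chi-square over its degrees of freedom 9.06 to 46.2).

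Genes with at least 10 reads in total (18579) were fitted with limma 3.58.1 in R 4.3.3 on log2(value + 1), with 4 group means, trended empirical Bayes moderation and Benjamini-Hochberg adjustment over all of them. A call was an FDR under 0.05, and a 2-fold call also needed an absolute log2 fold change of 1. The 5 comparisons share libraries. Levels per kb used the MANE Select transcript length of GENCODE v44, which also gave positions. The simulated-data test of the fit was passed before use.

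The members, the limit of 20 and the gene lists were chosen with earlier results of these data known. Named genes were all members with a mean of at least 20, with single-library values for those called at 2-fold in any comparison, and at most the 3 called genes with the largest change of each other list per comparison. Marker lists were the TNBC, luminal, fibroblast, and endothelial and blood cell genes given in the text, with CD44 and EGFR beside NR3C1 and VIM for TNBC. PGR (luminal), PDPN (fibroblast) and CD3E (blood) were also listed but had no value in the data, so they could not be checked. COL6A5 and COL22A1 were not analysed here. Alternatives were pseudocounts of 0.5 and 16, edgeR 4.0.16 (quasi-likelihood) and DESeq2 1.42.0 on the recovered reads, 2 other filters, TMM scaling, a replicate block, only the groups compared, and each library left out in turn.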

Additional observations from a re-analysis of the deposited data

Results flagged for a closer look

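The TGFβ1 response of COL1A1 differed between the 2 lines by a test of the difference itself. The log2 response was 2.97 in wt-GR and 1.80 in S134A-GR cells, a difference of −1.17 (SE 0.140, FDR 0.00265) with limma, n = 3 libraries per group. The difference was called under all alternatives tried, with values from −1.30 to −1.08. S134A-GR TGFβ1 replicate 1 had the lowest COL1A1 value of its group, and without it the difference was −1.09, FDR 0.00656. Groups of 3 libraries are too small for a gap test of single libraries, and none was run.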

How the results depend on the processing

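Of the 62 calls of a collagen gene in a comparison, 55 were made under every alternative tried, 7 were lost under at least 1, and none changed direction. Those lost were COL7A1 between lines under TGFβ1 (also −0.52, FDR 0.0910 with DESeq2 and −0.58, FDR 0.0635 with only the groups compared), COL9A2 (also −0.23, FDR 0.0605 with only the groups compared), COL9A3, COL13A1, COL18A1 and COL20A1 after TGFβ1 in wt-GR cells, and COL9A2 in S134A-GR cells. Besides those given in the report, calls were gained between lines under vehicle for COL7A1 (−0.29, FDR 0.0199) and COL20A1 (0.62, FDR 0.0337) and under TGFβ1 for COL1A1 (−0.18, FDR 0.0453) with only the groups compared, for COL9A2 under vehicle with TMM scaling (0.18, FDR 0.0442), and for the S134A-GR rise of COL20A1 with DESeq2 (0.79, FDR 0.0218). Of the called differences, 2-fold calls were also gained by COL9A3 between lines under vehicle without S134A-GR vehicle replicate 2 (−1.08) and COL20A1 after TGFβ1 in wt-GR cells without wt-GR TGFβ1 replicate 2 (1.20), and lost by COL27A1 there without wt-GR vehicle replicate 1 (0.988) or wt-GR TGFβ1 replicate 1 (0.997). The number of collagen genes with a different response, 1 by limma, was 4 with DESeq2 (3 at 2-fold, in place of 1), and 1 to 2 with a library left out. The other counts of called collagen genes stayed within 1.5 times the values reported. With libraries left out, the FDR counts ranged over 16 to 18 and 14 to 16 between lines under vehicle and TGFβ1, and 12 to 18 and 12 to 14 for the response in wt-GR and S134A-GR cells.

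The replicate numbers were not taken to pair the samples, since the values showed no such pairing, though so few libraries cannot exclude it. Deviations of same-numbered libraries had a mean r of 0.0144 (−0.0546 to 0.135, 18 pairs), against −0.00715 for others (36 pairs). With a replicate block, 2 collagen genes differed in response, COL6A3 being added (0.70, FDR 0.0332), and the other counts were 16, 15, 17 and 13 at FDR under 0.05, as without it.

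Over all genes, a pseudocount of 16 gave 940 in place of 1767 2-fold calls between lines under vehicle, 805 in place of 1571 under TGFβ1, 223 in place of 425 for the wt-GR response, 155 in place of 309 for the S134A-GR response and 19 in place of 11 for the difference in response. DESeq2 gave 211 in place of 77 genes with a different response, and 22 in place of 11 at 2-fold. With a library left out these were 22 to 166 and 3 to 15. The cause was not tested. TMM scaling moved the median of all genes by at most 0.0171. The depth leaves the 19 collagen genes under a mean of 20 without a usable fold change, and 3 libraries per group limit the precision of the rest.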
